A study of Mus musculus with 2 samples.

Results

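The interferon response genes are a set of 42 receptor, signalling and interferon-induced genes, listed by symbol and not picked by a threshold on these values. Earlier results of these data were known when this and the other lists below were chosen. A gene was read from a probeset that the platform annotation pairs with it alone, and where several existed, from the one with the highest mean of both arrays. By that rule 39 of the 42 had a value, out of 22180 genes in all. Gbp2 and Oas1a have only probesets shared with a near-identical gene, and Ifi44 is not analysed here. The study compared mouse intestinal subepithelial myofibroblasts, the contractile stromal cells beneath the gut epithelium, after 1 day in culture with or without eosinophil material. The stimulated array holds RNA of cells given homogenised gut eosinophils at 5 mg/ml, and the non-stimulated array RNA of untreated cells. The cells of both groups came from the small bowel of wild-type BALB/c mice, and their age is not used here. Each condition was grown as 3 cultures whose RNA was pooled, so each is 1 array, no test between conditions is possible, and each difference describes these 2 pools without an error.

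Interferons are secreted proteins that warn cells of infection. Type I interferons act through a receptor of Ifnar1 and Ifnar2, and interferon gamma through Ifngr1 and Ifngr2. The receptors activate kinases of the JAK family, which phosphorylate STAT proteins, and Stat2 and Irf9 are parts of the factor ISGF3. ISGF3 binds the interferon-stimulated response element (ISRE), whereas the gamma-activated site (GAS) is the element best known from the response to interferon gamma. The induced genes encode RNA-binding antiviral proteins, GTPases that attack pathogen-containing vacuoles, nucleic acid sensors and the brakes of the pathway itself.

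The values are the authors' RMA values, which are on a log2 scale and 1 per probeset and array. Background was set from 1405 probesets for odorant and vomeronasal receptors, which stromal cells are not known to use, as their 95th percentile. It lay at 5.57 on the stimulated and 5.58 on the non-stimulated array. All 9 myofibroblast markers were above it on both arrays, and 4 of them lay outside the central 95% of genes of like level, which 2 of the 34 members compared below did. Pdgfra read 9.66 on the stimulated and 9.10 on the non-stimulated array. The contractile genes read lower, Des at 7.23 on the stimulated and 7.85 on the non-stimulated array, Tagln at 10.68 on the stimulated and 11.08 on the non-stimulated array, and Acta2 at 12.78 on the stimulated and 13.07 on the non-stimulated array. One label field names eosinophils as the source of the samples, but none of 6 measured eosinophil markers was above background on either array. Of 7 macrophage markers, Cd68 and Cx3cr1 were above background on both arrays, and Lyz2 on the stimulated array only. All 3 read higher on the stimulated array, Lyz2 by at least 1.06-fold. The summed linear signal of the 7 was 390 on the stimulated and 345 on the non-stimulated array. That of 7 general leukocyte markers was 1025 on the stimulated and 1130 on the non-stimulated array, with Ptprc (CD45) under background on both. Most of that sum is 1 gene, Cd53, at 9.56 on the stimulated and 9.73 on the non-stimulated array. Of the 4 leukocyte markers above background, 1 read higher and 3 lower, all within 1.2-fold. Adgre1 and Csf1r, which define macrophages, were under background on both arrays. The part of such cells, or of the shift in contractile genes, in the values below was not tested. In bulk RNA, fewer cells of a type and less RNA per cell cannot be told apart.

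Most of the set was present in these cells without the homogenate, and the differences between the arrays were small. Of the 39 genes, 32 were above background on both arrays, 2 on 1 array and 5 on neither. Of the 34 above background on at least 1 array, 24 read higher on the stimulated array and 10 lower. Their median log2 difference (stimulated minus non-stimulated) was 0.095, with extremes of -0.29 and 0.51. Over all 14065 genes above background the median was 0.00 and 50.2% read higher. At least 1.2-fold higher were 5 members, Ifit1, Gbp3, Gbp7, Usp18 and Eif2ak2, which is 14.7% of the 34, beside 6.11% of all genes. At least 1.2-fold lower was 1 member, Oasl1, or 2.94% beside 6.91% of all genes. No member reached 1.5-fold in either direction, which 0.796% of all genes did higher and 0.64% lower, nor 2-fold, which 0.192% did higher and 0.0427% lower. The share of genes past 1.2-fold depended on level. In 4 equal sets of genes from dim to bright, 10.9%, 6.4%, 4.18% and 2.96% read at least 1.2-fold higher, and 14.1%, 8.05%, 3.07% and 2.42% at least 1.2-fold lower. Gbp3 and Oasl1 lie in the dimmest set, and Ifit1, Gbp7, Usp18 and Eif2ak2 in the third. Centred on a lowess trend over expression level, 8 members (beside 6.5% of all genes) passed 1.2-fold higher, with Oas3, Zbp1 and Mx2 added to the 5, and 1 passed lower (beside 6.41%). Mx2 counts there by its value under background on the non-stimulated array, and differed by -0.008 with values raised to the background level. At 1.1-fold, 12 members were higher, beside 17.7% of all genes, and 4 lower, beside 18.6%. With background at the 99th percentile, Gbp3 and Oasl1 were under it on both arrays, which left 4 higher members, beside 4.72% of all genes, and 0 lower, beside 3.75%. With no filter on low values, 5 members were higher, beside 8.62% of all genes, and 3 lower, beside 11.1%.

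**Figure D1:**
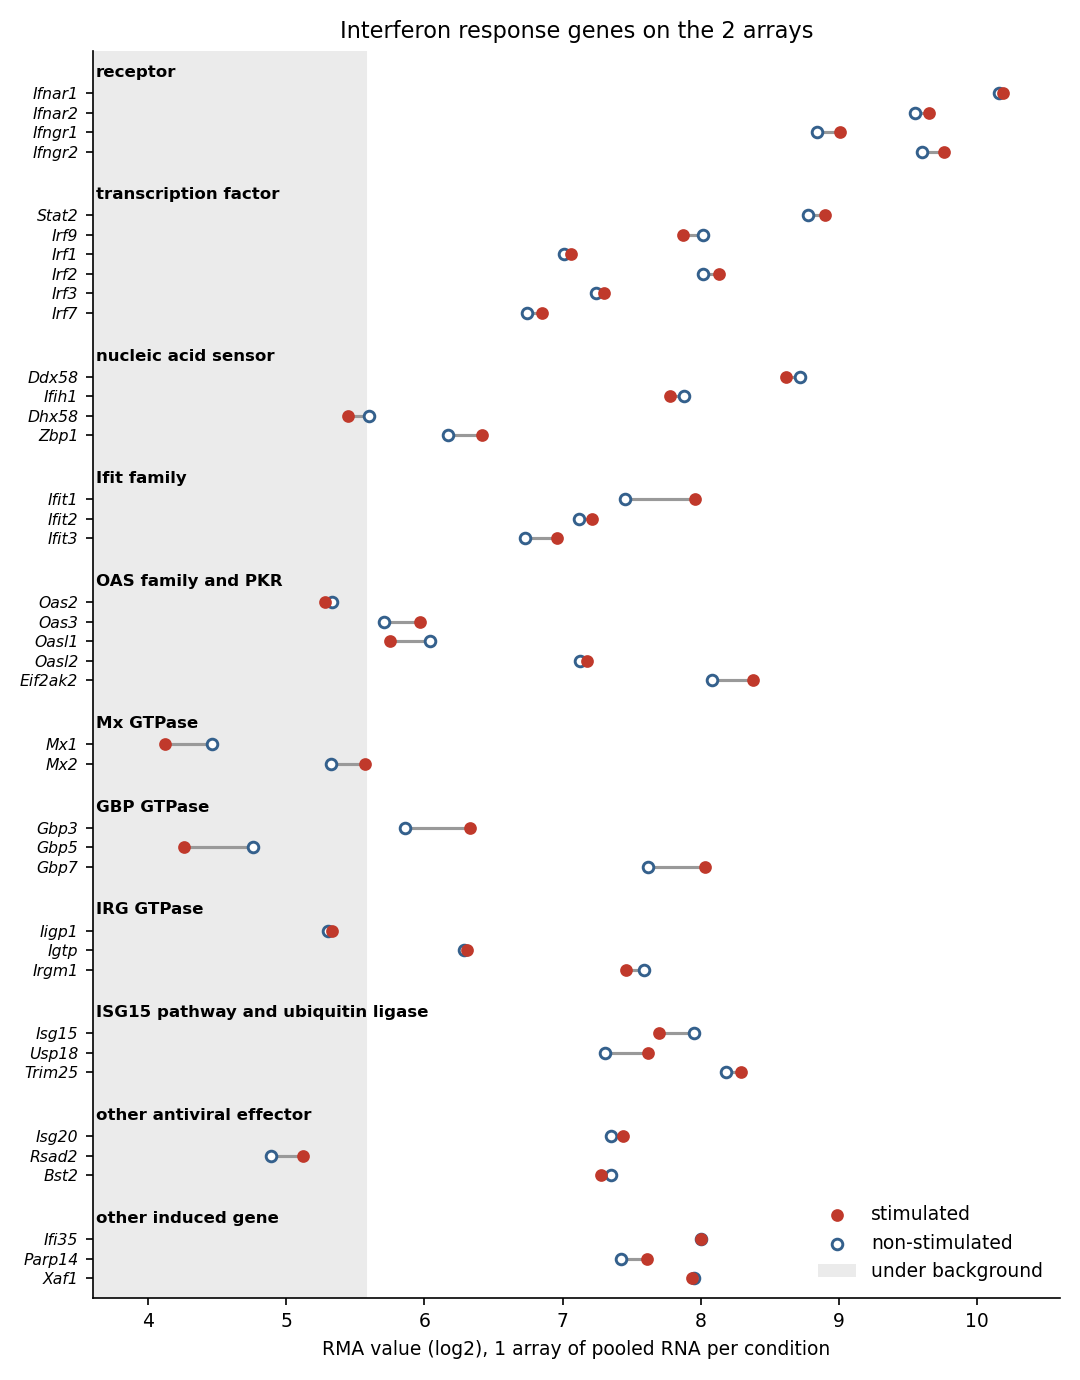
RMA values (log2) of the 39 members with a probeset of their own, grouped by role, on the stimulated array (filled) and the non-stimulated array (open). Grey marks values under background, where 5 members lie on both arrays, and the longest shifts to the right above it are those of Ifit1, Gbp3 and Gbp7.

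Promoter sequence was not itself used when the members were chosen by symbol. It is not independent of that choice, since the members were listed for the interferon response, of which ISRE and GAS are elements. Higher shares of these elements in the listed genes than in all genes are therefore no separate evidence about the list. RefSeq windows from 250 bases before to 50 after the annotated start (GRCm38.p6, the C57BL/6J genome) were found for 34 of the 42 genes. The ISRE letters GAAANNGAAA were searched on both strands. They stood in a window of 18 of the 34 genes (52.9%), against 3.99% of the 27025 genes with a window. The GAS letters TTCNNNGAA, which read alike on both strands, stood in 13 (38.2%), against 9.55% of all. The NF-kB motif in its usual degenerate form, on both strands, stood in 6 (17.6%), against 5.14% of all. The stretches below show the ISRE letters in capitals within their surroundings, read 5′ to 3′ on the gene's strand. The first 5 belong to antiviral Ifit genes and to GBP genes whose own probeset or, for Gbp2, a shared one read higher on the stimulated array, followed by the kinase gene Eif2ak2. The last 3 belong to genes that did not read higher, and these, Ifit3 and Gbp2 were chosen after the values were seen.
Ifit1, chr19:34640765-34640833, plus strand: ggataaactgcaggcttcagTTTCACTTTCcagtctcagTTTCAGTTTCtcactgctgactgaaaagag
Ifit3, chr19:34583353-34583436, plus strand: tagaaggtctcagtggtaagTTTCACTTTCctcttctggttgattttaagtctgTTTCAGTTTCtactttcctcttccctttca
Gbp2, chr3:142620584-142620633, plus strand: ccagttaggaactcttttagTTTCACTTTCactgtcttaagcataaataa
Gbp3, chr3:142559979-142560034, plus strand: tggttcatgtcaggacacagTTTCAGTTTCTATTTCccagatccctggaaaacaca
Gbp7, chr3:142530263-142530312, plus strand: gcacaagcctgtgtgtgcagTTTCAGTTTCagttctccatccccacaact
Eif2ak2, chr17:78882535-78882564, minus strand: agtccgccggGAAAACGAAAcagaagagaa
Isg15, chr4:156200855-156200916, minus strand: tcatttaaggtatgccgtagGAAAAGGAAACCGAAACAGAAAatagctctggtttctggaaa
Irgm1, chr11:48871421-48871470, minus strand: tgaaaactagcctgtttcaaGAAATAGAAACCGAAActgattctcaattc
Bst2, chr8:71537567-71537622, minus strand: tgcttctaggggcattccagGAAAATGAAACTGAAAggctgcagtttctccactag

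In the plus-strand stretches above the letters run on the opposite strand, and in the minus-strand genes on the gene's own strand. Ifit1 and Ifit3 each hold 2 separate matches, while the 2 matches of Gbp3, Irgm1 and Bst2 and the 3 of Isg15 overlap. In Eif2ak2 the match lies after the annotated start, and in the other 8 before it. A match describes letters only, and binding was not measured.

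The receptors were well above background and read slightly higher on the stimulated array. Ifnar1, a chain of the type I receptor, read 10.19 on the stimulated and 10.16 on the non-stimulated array. Its partner Ifnar2 read 9.65 on the stimulated and 9.55 on the non-stimulated array. Ifngr1, the chain that binds interferon gamma, read 9.01 on the stimulated and 8.84 on the non-stimulated array. Its partner Ifngr2 read 9.76 on the stimulated and 9.60 on the non-stimulated array. The differences ran from 0.03 to 0.16, all in 1 direction and all within the central 95% of genes of like level, which spans -0.25 to 0.29. Ifnlr1, the specific chain of the lambda receptor, was in a wider list. It was under background on the stimulated array at 5.48, against 5.96 on the non-stimulated array, which is at least 1.31-fold lower.

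The transcription factors that carry the signal were close to equal on both arrays. Stat2 read 8.90 on the stimulated and 8.78 on the non-stimulated array. Irf9, the DNA-contacting subunit of ISGF3, went the other way, at 7.87 on the stimulated and 8.02 on the non-stimulated array. Irf7, which amplifies type I interferon production and is itself induced by ISGF3, read 6.85 on the stimulated and 6.74 on the non-stimulated array. Of Stat2 and Irf9, one thus read higher and the other lower. Irf1, an activator that interferon gamma induces, read 7.06 on the stimulated and 7.01 on the non-stimulated array. Irf2, its antagonist, read 8.13 on the stimulated and 8.02 on the non-stimulated array. Irf3, which sensors of viral RNA activate, read 7.30 on the stimulated and 7.24 on the non-stimulated array. All 6 were within 1.2-fold, between -0.15 and 0.12, and 5 of them read higher.

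Sensors of foreign nucleic acid gave no common direction. Ddx58 (RIG-I) read 8.62 on the stimulated and 8.72 on the non-stimulated array, and Ifih1 (MDA5) 7.78 on the stimulated and 7.88 on the non-stimulated array. Both are cytosolic sensors of viral RNA, and both were lower by 0.10 on the log2 scale. Their regulator Dhx58 (LGP2) was under background on the stimulated array at 5.45, against 5.60 on the non-stimulated array. Zbp1, a sensor of Z-form nucleic acid that can trigger necroptosis, alone of these 4 members read higher. It was at 6.42 on the stimulated and 6.17 on the non-stimulated array, which is 1.19-fold.

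The Ifit genes, whose products bind viral RNA and block its translation, held the member with the largest difference. Ifit1 read 7.96 on the stimulated array, against 7.45 on the non-stimulated array, which is 1.42-fold higher. Of the 14065 genes, 164 differed by more in that direction. Among genes of like level, the central 95% of differences lay between -0.29 and 0.32, and Ifit1 at 0.51 was outside it. Ifit3, a neighbour on chromosome 19 that stabilises the Ifit1 protein in human cells, read 6.96 on the stimulated and 6.73 on the non-stimulated array, 1.18-fold higher. Ifit2, whose product joins them in a complex in human cells, read 7.21 on the stimulated and 7.12 on the non-stimulated array. All 3 read higher, by unequal amounts, and Ifit1 alone passed 1.2-fold. Their relatives Ifit1bl1, Ifit1bl2 and Ifit3b were under background on both arrays.

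**Figure D2:**
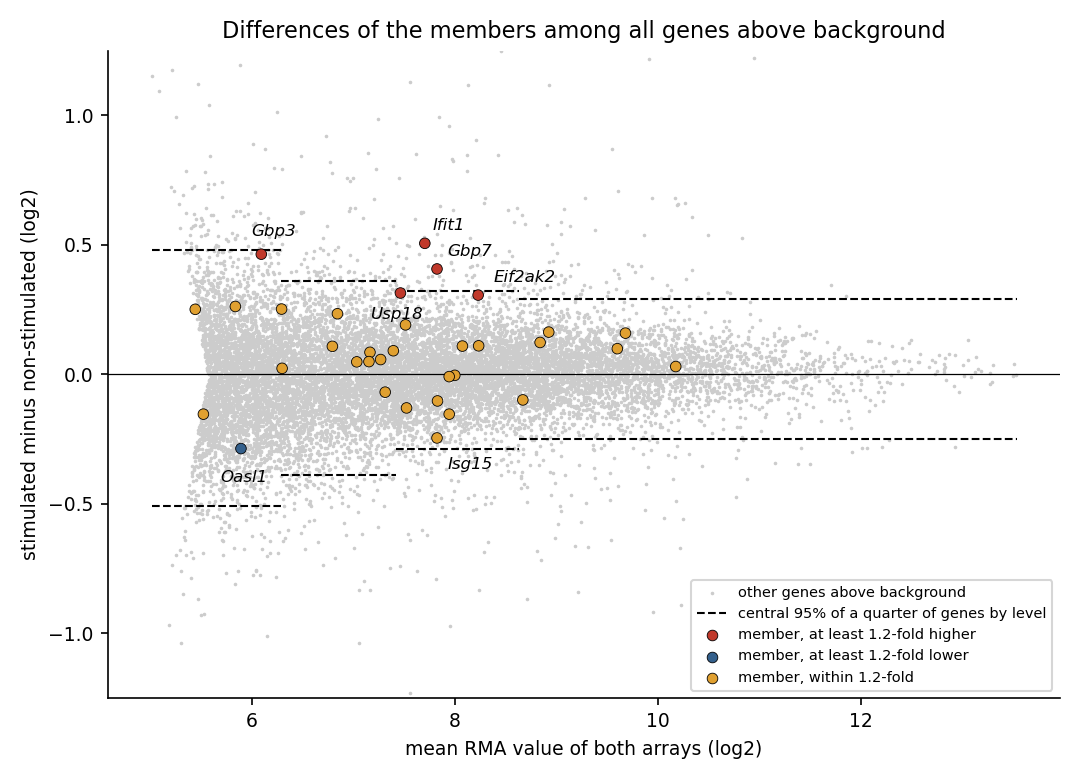
Difference between the arrays (stimulated minus non-stimulated, log2) against the mean RMA value of both arrays, for all 14065 genes above background (grey) and the 34 members among them (large points). Dashed lines bound the central 95% of genes in each of 4 equal sets by level. Ifit1 and Gbp7 lie above their lines, the other 32 members lie between them, and 16 genes lie beyond the axis limits.

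Guanylate-binding proteins (GBPs), large GTPases that coat pathogen vacuoles and are best known as targets of interferon gamma, all read higher on the stimulated array where a chromosome 3 gene was above background. Gbp7 read 8.03 on the stimulated array, against 7.62 on the non-stimulated array, 1.33-fold higher. Gbp3 read 6.33 on the stimulated array, against 5.86 on the non-stimulated array, 1.38-fold higher, a call lost with background at the 99th percentile. Gbp7 at 0.41 was outside the central 95% of genes of like level, whereas Gbp3 at 0.46 was inside the wider range of dim genes, -0.51 to 0.48. Gbp5, which assists inflammasome assembly, was under background on both arrays, at 4.26 on the stimulated and 4.76 on the non-stimulated array, so no difference could be measured. The probeset shared by Gbp2 and its near-identical neighbour Gbp2b read 7.94 on the stimulated and 7.42 on the non-stimulated array. That is 1.43-fold higher for the pair, whose contributions cannot be told apart. Gbp2b also has a probeset of its own, which read 7.2 on the stimulated and 6.86 on the non-stimulated array, 1.26-fold higher.

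These genes form 1 neighbourhood on chromosome 3, and a second GBP group lies on chromosome 5. Of 4 chromosome 3 genes with a probeset of their own, the 3 above background on both arrays differed by 0.34 to 0.46. Of 6 genes on chromosome 5, the 2 above background differed by -0.10 and 0.10. Those were Gbp9, at 6.31 on the stimulated and 6.40 on the non-stimulated array, and Gbp10, at 7.19 on the stimulated and 7.09 on the non-stimulated array. The difference between the groups was not tested, and near-identical copies may share probes.

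**Figure D3:**
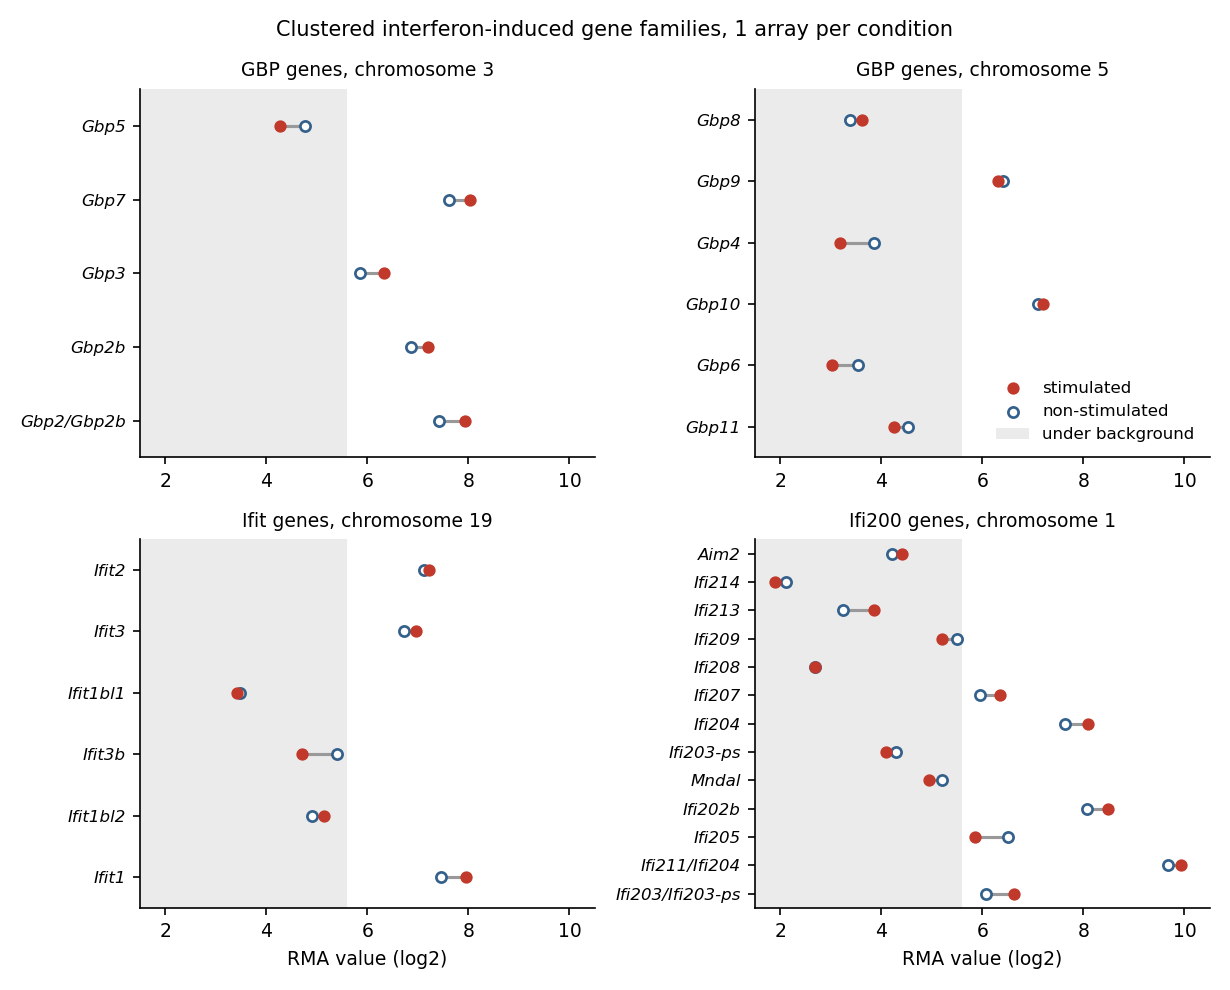
RMA values (log2) on the stimulated (filled) and non-stimulated (open) array for interferon-induced genes that stand together on a chromosome, in map order, with shared probesets at the bottom and grey for values under background. On chromosome 3 each GBP value above background lies further right when stimulated, whereas on chromosome 5 Gbp9 and Gbp10 differ by 0.10 in opposite directions.

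The immunity-related GTPases (IRGs), a mouse family that disrupts parasite vacuoles, were close to equal on both arrays where they could be measured. Irgm1, a regulator of the family and of autophagy, read 7.46 on the stimulated and 7.59 on the non-stimulated array. Igtp, another regulator, read 6.31 on the stimulated and 6.29 on the non-stimulated array. The effector Iigp1 was under background on both arrays, at 5.33 on the stimulated and 5.30 on the non-stimulated array. Irgm2, a regulator from the wider list, read 6.77 on the stimulated and 6.61 on the non-stimulated array. These 3 IRGs were within 1.2-fold, and Irgm1 and Igtp have ISRE letters in their promoter windows, as Gbp3 and Gbp7 have.

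Among RNA-activated enzymes the kinase gene was higher and the oligoadenylate synthase (OAS) genes were mixed. Eif2ak2, which encodes PKR, a kinase that halts translation on viral RNA, read 8.38 on the stimulated and 8.08 on the non-stimulated array. That is 1.24-fold higher, inside the central 95% of genes of like level, of which 2.79% were further up. Oas3, whose product makes the second messenger that activates RNase L, read 5.97 on the stimulated and 5.71 on the non-stimulated array, just under 1.2-fold at 0.262 on the log2 scale. Oasl1, known in mice to restrain Irf7 translation, read 5.75 on the stimulated and 6.04 on the non-stimulated array. It was 1.22-fold lower, a call also lost at the stricter background. At the main background, 12% of genes of like level were further down. Oasl2 read 7.18 on the stimulated and 7.13 on the non-stimulated array. Oas2 was under background on both arrays, at 5.28 on the stimulated and 5.33 on the non-stimulated array. The probeset that Oas1a shares with Oas1g was under it as well, at 3.21 on the stimulated and 3.76 on the non-stimulated array.

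Isg15 and its protease gene differed in opposite directions. Isg15, a ubiquitin-like protein that is joined to other proteins after interferon, read 7.70 on the stimulated array, against 7.95 on the non-stimulated array. That difference of -0.25 is 1.19-fold lower, and 3.73% of genes of like level were further down. Usp18, which removes Isg15 from its targets and also quiets the type I receptor, read 7.62 on the stimulated and 7.31 on the non-stimulated array, 1.24-fold higher. Of genes of like level, 2.67% were further up than Usp18, so both genes lay towards the edge of the range but inside its central 95%. Trim25, a ubiquitin ligase that acts on RIG-I, read 8.29 on the stimulated and 8.18 on the non-stimulated array.

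Further antiviral effectors were close to equal or not measurable. Bst2 (tetherin), which holds budding virions at the cell surface, read 7.28 on the stimulated and 7.35 on the non-stimulated array. Isg20, an exonuclease, read 7.44 on the stimulated and 7.35 on the non-stimulated array. Rsad2 (viperin), an enzyme that makes a chain-terminating nucleotide, was under background on both arrays, at 5.12 on the stimulated and 4.89 on the non-stimulated array. Mx1 was under background too, at 4.12 on the stimulated and 4.46 on the non-stimulated array. Its product blocks influenza virus, and BALB/c, like most laboratory strains, carries a defective allele. Its relative Mx2 was at the background level on the stimulated array at 5.57, against 5.32 on the non-stimulated array, so that no fold can be given. Parp14, an ADP-ribosyltransferase, was 1.14-fold higher, at 7.61 on the stimulated and 7.42 on the non-stimulated array. Ifi35, an interferon-induced leucine zipper protein, read 8.0 on both arrays. Xaf1, a promoter of cell death, read 7.94 on the stimulated and 7.95 on the non-stimulated array.

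A wider list of the pathway held 127 genes with a probeset of their own, of which 94 were above background. At least 1.2-fold higher were 14 (14.9%, beside 6.11% of all genes), and 7 were at least 1.2-fold lower (7.45%, beside 6.91%). Their median difference was 0.050. No interferon gene passed 1.2-fold higher. Ifnb1 and Ifng are named outside the naming rule, as the best-known type I and type II ligands. Ifnb1 was under background on both arrays, at 3.73 on the stimulated and 3.82 on the non-stimulated array. Ifng was close to background, at 5.72 on the stimulated and 5.58 on the non-stimulated array. Ifna4, one of many near-identical alpha genes, was 1.34-fold lower, at 6.39 on the stimulated and 6.81 on the non-stimulated array. The lambda gene Ifnl3 was 1.21-fold lower. The brightest ligand or co-receptor probesets, Ifna1, Ifnl2 and Il10rb, were within 1.2-fold, as were the signalling genes Jak1, Jak2 and Stat3.

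Of the regulators in the wider list, Ikbke, a kinase that activates Irf3 and NF-kB, was 1.31-fold higher, at 7.36 on the stimulated and 6.97 on the non-stimulated array. Ptpn2, a phosphatase that dephosphorylates JAK and STAT proteins, was 1.31-fold higher, at 8.30 on the stimulated and 7.92 on the non-stimulated array. Irf8, best known from myeloid cells, was 1.24-fold higher but dim, at 6.06 on the stimulated and 5.76 on the non-stimulated array. Ticam1 (TRIF), the adaptor of Tlr3, was 1.2-fold lower. Both Ikbke and Ptpn2 lay outside the central 95% of genes of like level, and Irf8 and Ticam1 inside it.

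Of 40 further induced genes above background in the wider list, 31 were within 1.2-fold. Past 1.2-fold, 7 were higher (17.5%, beside 6.11% of all genes) and 2 lower (5.0%, beside 6.91%). The brightest of the 40, Ifitm3, Lgals3bp and Ifi30, differed by 0.08, -0.06 and -0.05 on the log2 scale. Phf11a was 1.44-fold higher, at 7.47 on the stimulated and 6.95 on the non-stimulated array. Ifi204, a DNA sensor of the Ifi200 family, was 1.38-fold higher, at 8.09 on the stimulated and 7.63 on the non-stimulated array. A brighter probeset that Ifi204 shares with Ifi211 was within 1.2-fold. It read 9.93 on the stimulated and 9.68 on the non-stimulated array, 1.19-fold higher. The family member Ifi205 was the most different in the other direction, 1.56-fold lower at 5.86 on the stimulated and 6.50 on the non-stimulated array. Opposite values thus stand in 1 gene group on chromosome 1. Its other genes were looked up after the values were seen. Of 11 genes of the group with a probeset of their own, 4 were above background on both arrays. Besides Ifi204 and Ifi205 these were Ifi202b, 1.33-fold higher, and Ifi207, 1.32-fold higher. Plscr1 was 1.29-fold, Nampt 1.27-fold, Apol9a 1.23-fold, Parp9 1.22-fold and Ifitm2 1.22-fold higher. Lgals9, which encodes galectin-9, was 1.28-fold lower, at 9.72 on the stimulated and 10.08 on the non-stimulated array. The chemokine gene Cxcl10 was under background on the non-stimulated array and at least 1.49-fold higher, at 6.16 on the stimulated and 5.53 on the non-stimulated array.

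Genes of antigen presentation are a classic output of interferon gamma. A list of these and other interferon gamma genes held 18 above background. Of the 18, 2 passed 1.2-fold higher (11.1%, beside 6.11% of all genes) and 1 lower (5.56%, beside 6.91%). With so few genes that is near the share of all genes. The higher were Icam1, a leukocyte adhesion molecule, at 1.28-fold, and Ciita, the master regulator of class II genes, at 1.27-fold. Ciita was dim, at 6.47 on the stimulated and 6.12 on the non-stimulated array. Its target H2-Eb1 was dim too and 1.27-fold lower, at 5.92 on the stimulated and 6.26 on the non-stimulated array. Both lay inside the central 95% of genes of like level. Of further class II genes, named outside the naming rule, H2-Ab1 differed by 0.02 and H2-Aa was under background on both arrays. The brightest of the list were B2m, the light chain of class I, at a log2 difference of 0.06, Psme1, a proteasome activator, at -0.03, and Wars, a tRNA synthetase, at -0.12.

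**Figure D4:**
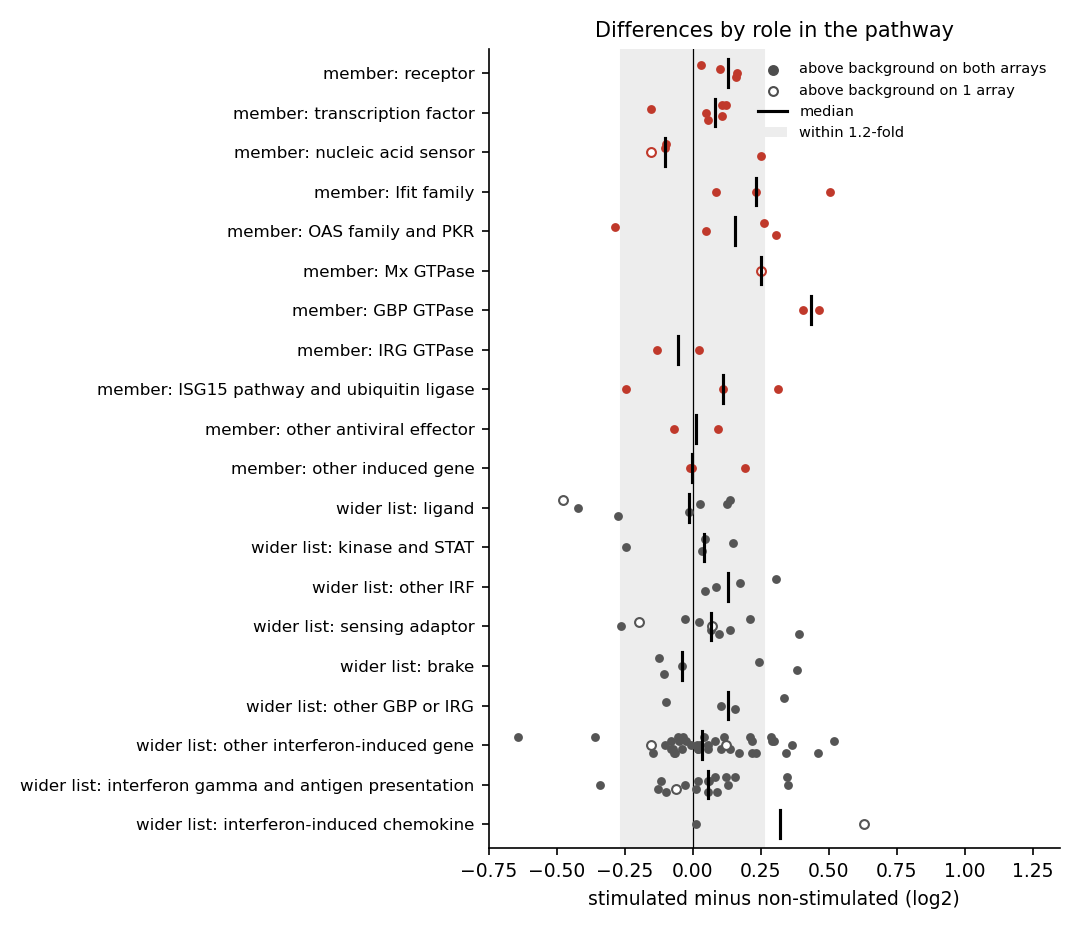
Difference between the arrays (stimulated minus non-stimulated, log2) of each gene above background, by role, for the members (upper rows) and the wider list (lower rows). Bars are medians, and the grey band holds values within 1.2-fold, where 28 of the 34 members lie, while both GBP members lie to its right.

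The promoter letters were then set against the differences. Of the members above background with a window, 14 held ISRE letters and 15 did not. Ifit1, Gbp3, Gbp7 and Eif2ak2, the 4 with a window among the 5 higher members, all fell in the first group, and Oasl1, the lower one, in the second. The window of Usp18 is not analysed here. The median difference was 0.12 with the letters and 0.06 without, and 9 of 14 against 11 of 15 read higher. Isg15, Irgm1 and Bst2, shown above with 2 or 3 matches each, differed by -0.25, -0.13 and -0.07, so that the letters stood on both sides of 0.

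Over all genes above background with a window, 382 held ISRE letters and 10572 did not. The share at least 1.2-fold higher was 8.64% with the letters and 5.57% without. The share at least 1.2-fold lower was also 8.64% with the letters, against 6.33% without. The median difference was 0.026 with the letters and 0.002 without, and 56.5% of genes with them read higher, against 50.4% of those without. Without the 42 listed genes, the shares of the genes with the letters were 7.88% higher and 8.97% lower. The genes with letters were thus more often past the threshold on both sides, by small amounts. Of them 25.7% were in the dimmest of 4 equal sets by level, against 23.9% of the rest, and the part of that gap was not tested. For the GAS letters the shares were 6.33% higher and 5.09% lower, against 5.62% and 6.52% without them. For the NF-kB motif they were 7.94% higher and 6.03% lower, against 5.53% and 6.43% without it.

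**Figure D5:**
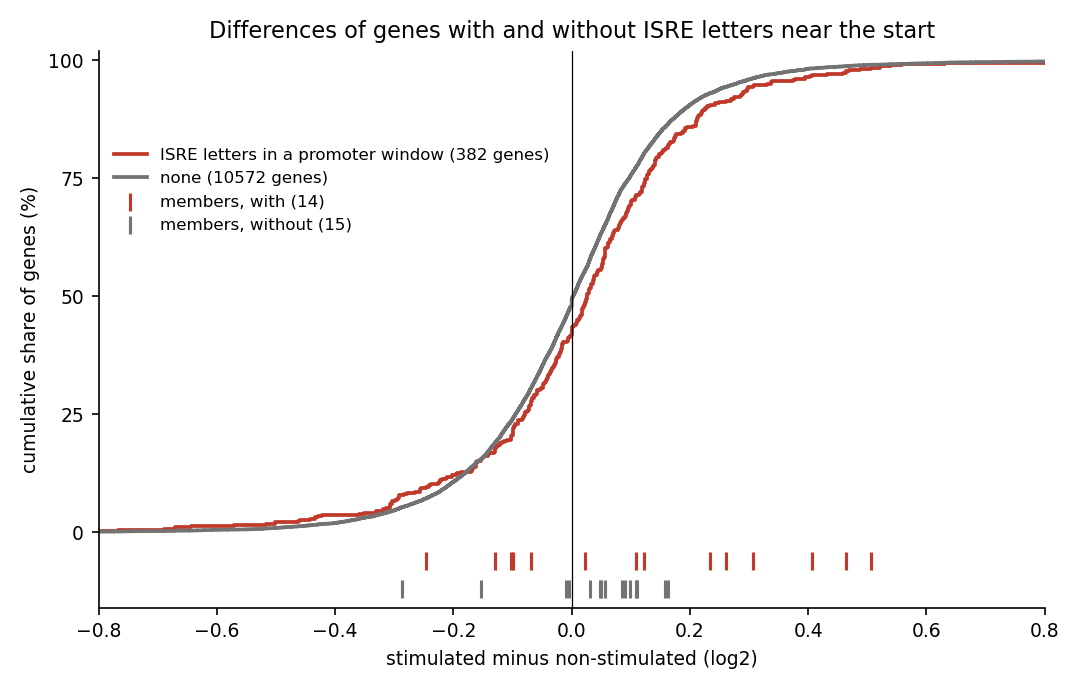
Cumulative share of genes (percent) by difference between the arrays (stimulated minus non-stimulated, log2), for 382 genes with ISRE letters in a promoter window and 10572 without. Ticks below mark the members with a window, 14 with and 15 without the letters. The curve of genes with the letters lies slightly to the right over the middle. Of the members with a window, the 4 furthest right all hold the letters.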

How the data were processed

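RNA of myofibroblasts was extracted with Trizol, pooled over 3 cultures and hybridised to the GeneChip Mouse Gene 2.0 ST array, per the labels' protocols and the series design text. The deposited values are log2 values made with Affymetrix Expression Console and RMA, per the submitters' processing notes, with no version stated there. Both arrays were brought to 1 distribution: their sorted values differed by at most 0.0757, so differences are relative to the whole array. No source used here names the genome build behind the values. Of 41345 probesets, the platform annotation names 1 gene for 23521, more than 1 for 1814 and none for 16010, and 23328 of the first kind matched RefSeq gene identifiers (GRCm38.p6). Background was the 95th percentile of the receptor probesets, and genes above it on at least 1 array were compared. Where 1 array was under background, the fold uses the background level there and is a lower bound. Differences are stimulated minus non-stimulated, called past 1.2-fold. With 1 array per condition no p-value is given, and the number of arrays limits the precision. Calls, lowess centring (fraction 0.3) and the motif search were tested on simulated data. Python 3.11.15, pandas 2.3.3, statsmodels 0.14.6 and matplotlib 3.10.9 were used. By the naming rule, every member is named, members past 1.2-fold, receptors and transcription factors are described in full, and the wider list is named past 1.2-fold, plus up to 3 genes a group with the highest level. The rule showed promoters of members at least 1.2-fold higher that hold ISRE letters. Alternatives covered the filter, the background, the choice of probeset, the scaling, the threshold and the promoter window. Members and lists were chosen with earlier results of these data known.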

Additional observations from a re-analysis of the deposited data

Results flagged for a closer look

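Probesets that several genes share were left out of the counts, and of 19 above background that hold a listed gene, 5 differed by at least 1.2-fold higher and 1 lower in measured value. Over all 1081 shared probesets above background the shares were 7.96% higher and 7.49% lower. The probeset of Gbp2 and Gbp2b differed by 0.52 on the log2 scale, and that of Ifi203 and its copies by 0.54, at 6.62 on the stimulated and 6.07 on the non-stimulated array. The probeset of Slfn9 and Slfn8 differed by 0.41, at 7.18 on the stimulated and 6.77 on the non-stimulated array. The probeset of Dtx3l and Parp9, which share a divergent locus, differed by 0.28, as the probeset of Parp9 alone did by 0.29. The probeset of Irf5 and Tnpo3 differed by 0.54, but was under background on the non-stimulated array, so that it is at least 1.15-fold higher. The probeset of Slfn5 and its antisense gene differed by -0.35, at 5.25 on the stimulated array, under background, and 5.60 on the non-stimulated array, just above it. Which gene of a shared probeset accounts for its value cannot be told apart.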

How the results depend on the processing

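No paired analysis was possible because each condition is 1 array. Under the 7 alternatives of filter, background, probeset choice and scaling, the median of the members stayed between 0.085 and 0.095, with a mean of 0.094 and a median of 0.091 without Ifit1. The count of 5 higher members was 8 with centring on a lowess trend (beside 6.5% of all genes) and 12 at a threshold of 1.1-fold (beside 17.7%). It was 0 at 1.5-fold and at 2-fold (beside 0.796% and 0.192%). The count of 1 lower member was 3 with no filter on low values (beside 11.1% of all genes) and 0 with background at the 99th percentile (beside 3.75%). It was 4 at 1.1-fold (beside 18.6%), and 0 at 1.5-fold and at 2-fold (beside 0.64% and 0.0427%). In the wider list the 7 lower genes became 17 with no filter and 3 at the 99th percentile, beside 11.1% and 3.75% of all genes. The 14 higher genes became 20 and 10 in these settings, beside 8.62% and 4.72%. With no filter the counts are out of 127 genes of that list, against 94 at the main background. For that list, both settings were added after the data were seen. Centring on a lowess trend or on the median, raising values to the background level and averaging probesets change the values. The other settings change which genes or thresholds count. Of 229 values of single members, 227 moved by under 0.1 on the log2 scale. The exceptions were Dhx58 (-0.034) and Mx2 (-0.008) with values raised to the background level. With only the bases before the start, 15 listed genes held ISRE letters. No called member changed direction. One pooled array per condition gives no replicate error, and dim genes vary more than bright ones.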
